A study of Mus musculus with 2756 samples.

Results

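Apical progenitors (AP) are the radial glia that line the ventricle of the developing neocortex and divide at its surface. The cells described here are mouse AP cells caught 24 h after they were labelled, set against AP cells of the same embryonic stage caught 1 h after labelling. Members were the cells whose authors' cluster name starts with AP in 6 conditions, and they numbered 602 of the 2756 cells in the series and of 843 AP cells in all. The pairs were E12 24 h with E13 1 h (collected at stage E13, with 14 cells at 24 h), E13 24 h with E14 1 h (stage E14, with 22 cells) and E14 24 h with E15 1 h (stage E15, with 32 cells). The cells at 1 h numbered 534, of which 37.6, 22.5 and 39.9% were in these pairs. The pairs are called the E13, E14 and E15 pairs below, and values are given in that order.

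The study injected FlashTag, a fluorescent dye taken up by cells in mitosis at the ventricular surface, on 1 of the days E12 to E15 of gestation and took labelled cells after 1, 24 or 96 h. The presumptive somatosensory cortex was dissected, the brightest 5% of cells were sorted, and single cells were captured on a Fluidigm C1 HT-800 circuit and read as full-length cDNA made from polyA RNA. The labels used here name no genotype, strain, sex, litter or animal, and all groups carried the dye. Each condition was therefore summed over its AP cells and counted as 1 sample, so a p-value measures only the spread between these sums, which may be technical.

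Radial glia alternate between a nucleus that divides at the ventricle and one that copies its DNA deeper in the ventricular zone, and they give rise to basal progenitors (BP) and neurons. FlashTag catches them at division, so AP cells at 1 h have just divided, whereas many of their labelled sisters have left the progenitor state a day later. Sox2, Pax6, Nes and Hes5 are textbook markers of the progenitor state, Eomes marks BP cells, and Neurod2, Neurod6 and Dcx come on in young excitatory neurons.

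AP cells made up 5.22, 9.87 and 14.6% of the sorted cells at 24 h. At 1 h they made up 97.1%, 89.6% and 70.8%. The 3 sums at 24 h held 5.27, 9.54 and 20.1 M reads and those at 1 h 68.8, 45.4 and 64.4 M, so the 24 h sums rest on few cells: the deepest cell alone gave 14.1, 12.3 and 6.41% of their reads, against at most 1.98% at 1 h. Each run code in the cell titles held a single collection time (1 for E12 and E13 24 h, another for E14 24 h and a further 2 at 1 h), so collection time and run cannot be told apart. The E13 1 h sum stood apart in genes of the Y chromosome. Ddx3y, an RNA helicase gene there, was at 0.0911 CPM (counts per M, scaled by TMM) in that sum against 12.4 to 101.7 CPM in the other 5, and Uty was at 0.410 CPM against 10.0 to 68.2 CPM. The E13 pair therefore also differed in Y-linked RNA, and the part of this in the results was not tested. At E12 24 h, the 24 h side of this pair, Ddx3y was read in 2 of 14 cells. The highest cell for each gene gave 97.3% of the Ddx3y reads and 90.6% of the Uty reads there. Thinned to 100000 reads, AP cells showed a median of 3138, 3043 and 3982 genes at 24 h and 3083, 3167 and 3491 at 1 h (exact permutation p = 0.75, n = 3 pairs, two-sided).

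The AP label comes from the same expression values, so the marker levels given here describe the sums and do not test it. Pax6, a transcription factor of cortical radial glia, stood at 692, 839 and 692 CPM at 24 h and at 640, 605 and 668 CPM at 1 h. All 3 values at 24 h lay above all 3 at 1 h, but the log2 difference was only 0.21 ± 0.20 (SE). The 18 AP markers summed to 5497, 7504 and 7748 CPM at 24 h and 5380, 6282 and 8053 CPM at 1 h. In N1d cells, the neurons that dominated the 24 h sorts, the same markers summed to 980, 958 and 1104 CPM. No marker of interneurons, Cajal-Retzius cells, microglia, endothelial cells or oligodendrocytes reached the expression filter, and each of these lists summed to at most 38.1 CPM in any of the 6 sums. The deposited counts held only 3 of 10 microglia, 4 of 12 endothelial and mural and 2 of 5 oligodendrocyte markers. The other markers of these lists could not reach the filter, so absence of those cells was not tested.

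AP cells of both times fell into the same authors' sub-clusters, early, mid1, mid2 and late, in different shares. AP.mid1 held 3 of 14, 4 of 22 and 1 of 32 cells at 24 h. These are shares of 21.4, 18.2 and 3.13%, against 62.7, 52.5 and 12.7% at 1 h. The share was lower at 24 h in all 3 pairs, by 41.3, 34.3 and 9.55 percentage points (mean -28.4, SD 16.7). The exact two-sided permutation test over 3 pairs gave p = 0.25, the smallest it can give. AP.mid2 was higher at 24 h in all 3 pairs, with a share of 57.1, 36.4 and 37.5% against 25.9, 27.5 and 29.1% at 1 h. AP.late was 6.82, 16.8 and 1.16 points higher, and AP.early was within 9 points in every pair. AP.late took a larger share at later stages, from 7.46% in the E13 1 h cells to 58.2% in the E15 1 h cells and from 14.3% to 59.4% at 24 h. Sub-cluster names come from the same expression values as the comparisons that follow.

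**Figure D1:**
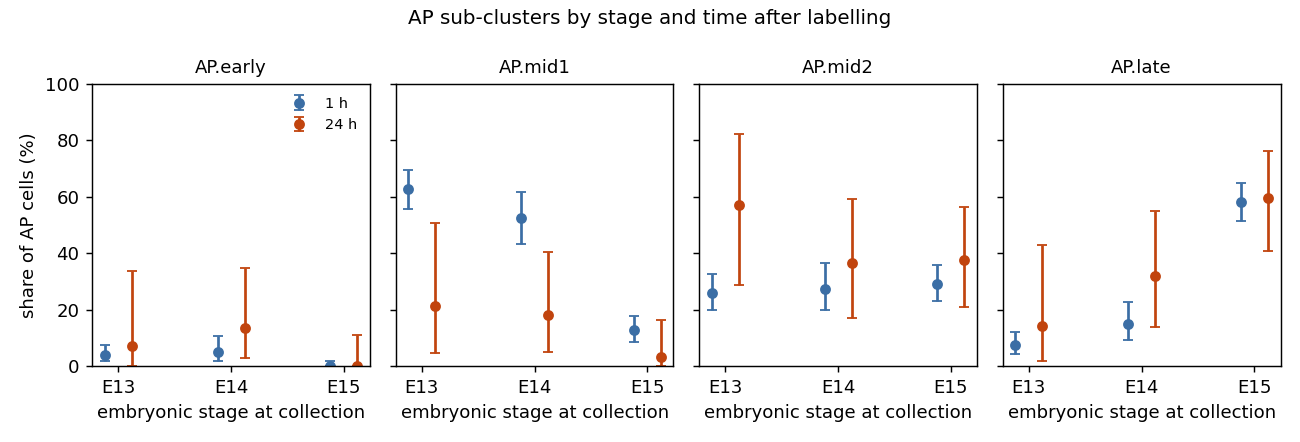
Share of AP cells (%, vertical axis) in each authors' sub-cluster by embryonic stage at collection, at 1 h (blue) and 24 h (orange), with exact 95% binomial intervals that cover counting error only. AP.mid1 lies lower at 24 h in each pair, with intervals that do not overlap at E13 and E14 and do at E15.

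Gene levels were compared with edgeR's quasi-likelihood test on the 6 sums with stage as a factor. No gene of 8844 tested passed an adjusted p of 0.05 (0% called), and the smallest adjusted p was 0.839. At an unadjusted p under 0.05 there were 501 genes (5.66%), 2.82% higher and 2.85% lower at 24 h. The fit had 2 residual degrees of freedom and a biological coefficient of variation of 69.2%. On simulated data of this size it recovered 1 of 67 genes changed by 1 log2 unit, 8 of 67 changed by 2 and 16 of 66 changed by 3, so a difference of the sizes given here would mostly not be called. DESeq2 called 1.99% of the genes, 49 higher (0.554%) and the rest lower (1.44%). An added limma voom fit with sample weights, chosen after the edgeR result was seen, called 2.09%, 150 higher (1.7%) and 35 lower (0.396%). The balance of directions thus differed between the tools, and 53 genes were called by both. No gene is described below as changed, and values per sum are given with the log2 difference and SE of the edgeR fit. Over all genes tested the median log2 difference was -0.15, 1200 genes (13.6%) were higher at 24 h in all 3 pairs and 1529 (17.3%) were lower in all 3. These shares are the background for every count of list members given below as higher or lower in all 3 pairs.

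Genes of young cortical neurons gave the largest list median. Neurod6, a transcription factor of cortical excitatory neurons (chromosome 6, 55677822 to 55681263, GRCm38), stood at 460, 204.2 and 208.3 CPM in AP cells at 24 h against 31.9, 47.01 and 67.6 CPM at 1 h. Every 24 h sum lay above every 1 h sum, also with the 2 AP sums outside the pairs added (18.5 CPM at E12 1 h, 132.4 CPM at E15 24 h). The log2 difference was 2.51 ± 0.48. The unadjusted p was 0.000937 in edgeR, and the adjusted p ranged from 6.61e-13 in voom to 0.999 over the fits tried.

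Its close relative Neurod2 stood at 159.1, 99.1 and 116.5 CPM at 24 h and 17.3, 55.7 and 32.8 CPM at 1 h (log2 difference 1.95 ± 0.57). Cntn2, an adhesion molecule of growing axons, stood at 156.7, 50.3 and 35.0 CPM at 24 h and 1.29, 2.21 and 5.41 CPM at 1 h (4.67 ± 1.05). For both, the 24 h and 1 h sums did not overlap. A single cell gave 74.2% of the Cntn2 reads at E12 24 h, where 8 of 14 thinned cells had a read. The highest cell gave 50.6% at E13 1 h and 75.8% at E14 1 h. Dcx, a microtubule-binding protein of migrating neurons, was split between pairs: it stood at 150, 46.7 and 164.4 CPM at 24 h and 11.3, 65.2 and 54.9 CPM at 1 h, so the E14 pair went the other way. Map2, a dendritic microtubule protein, overlapped fully, at 109.04, 151.4 and 103.95 CPM against 98.3, 145.4 and 183.6 CPM. Nrp1, a semaphorin receptor, stood at 111.2, 45.96 and 110 CPM at 24 h against 11.6, 52.5 and 16.6 CPM at 1 h.

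Of 15 young neuron markers tested, 4 (Neurod6, Neurod2, Cntn2 and the transcription factor gene Myt1l) were higher in all 3 pairs and none was lower, and the median log2 difference was 1.28. The median was 3.16 in the E13 pair but 0.40 and 0.72 in the E14 and E15 pairs, so the list value rests largely on the E13 pair. In that pair E12 24 h, with 14 cells, had the highest summed level at 24 h, and E13 1 h had the lowest at 1 h. The 4 that were higher did not overlap between times in the pairs (7.62% of all genes lay above without overlap), nor in all 8 sums (3.1%). All 19 markers together summed to 2054, 1009 and 1184 CPM at 24 h and 308, 653 and 775 CPM at 1 h. N1d cells of the same 24 h conditions summed to 9964, 11049 and 12287 CPM, and BP cells to 4749, 4800 and 2043 CPM. The AP level as a share of the N1d level ranged over the 19 markers from 0.153 to 33.9% at E12 24 h, 0.784 to 40.7% at E13 24 h and 5.38 to 36.2% at E14 24 h, and for Neurod6 it was 23.1, 10.9 and 9.02%.

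**Figure D2:**
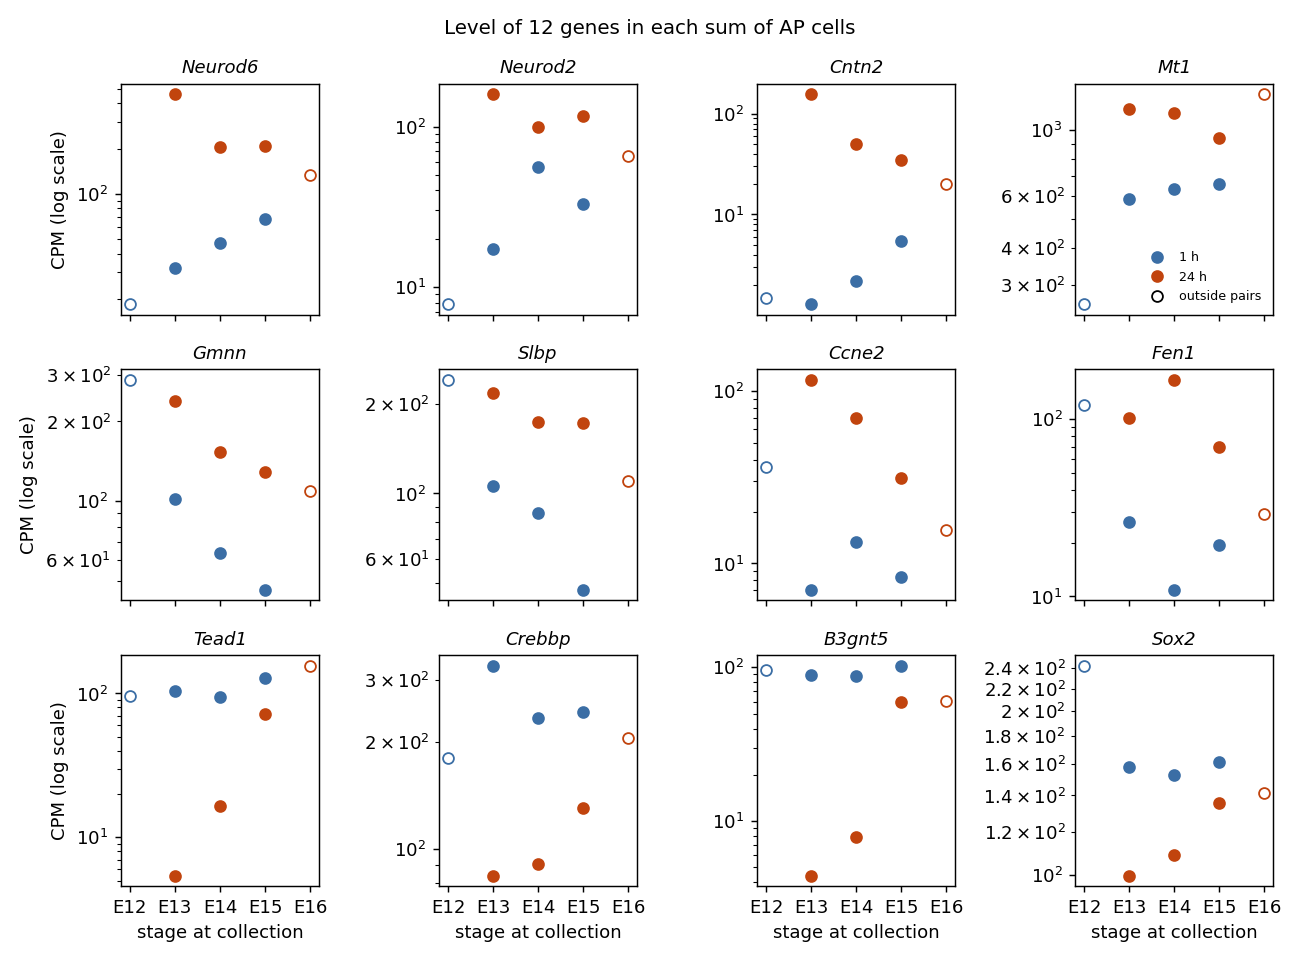
Level of 12 genes (CPM, log axis) in each sum of AP cells by stage at collection, at 1 h (blue) and 24 h (orange). Filled points are the 3 stage pairs and open points the sums outside them. Neurod6, Neurod2, Cntn2 and Mt1 lie higher at 24 h in all sums, whereas E12 1 h reaches or passes 24 h levels for Gmnn, Slbp, Ccne2 and Fen1.

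In single cells, Neurod6 reads were spread widely and did not come from 1 cell. After thinning to 50000 reads, it was read in 78.6% (11 of 14), 36.4% (8 of 22) and 84.4% (27 of 32) of AP cells at 24 h, and in 13.1, 26.5 and 37.1% at 1 h. Without thinning it was read in 13 of 14, 21 of 22 and 32 of 32 cells at 24 h and in 24.4, 42.5 and 56.3% at 1 h. The highest cell gave 27.2, 41.9 and 14.7% of the Neurod6 reads of the 24 h sums. Interneurons (IN), which should lack Neurod6, had it in 8 of 9 thinned cells at 24 h (88.9%, exact 95% interval 51.8 to 99.7%, median 263.45 CPM) but in 9 of 40 at 1 h (22.5%, median 1.31 CPM). The median depth was 398560 reads in IN cells at 24 h, and 351020, 362951 and 650719 reads in the AP cells. Of these 9 IN cells 6 came from E14 24 h and 3 from E15 24 h. E12 and E13 24 h held 0, so the share in IN cells was not measured in those conditions. Why IN cells at 24 h had Neurod6 reads was not tested. The share in AP cells at E14 24 h did not exceed that in IN cells, and no share at 24 h is read here as expression in progenitors. N1d cells, where 98.4% had it at a median of 1903 CPM, made up 65.7, 69.1 and 78.5% of the cells in the 24 h conditions and 0.966, 0 and 3.32% in the 1 h conditions. The part of RNA from those neighbours was not tested. In summed RNA, more cells with a transcript and more transcript per cell cannot be told apart.

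**Figure D3:**
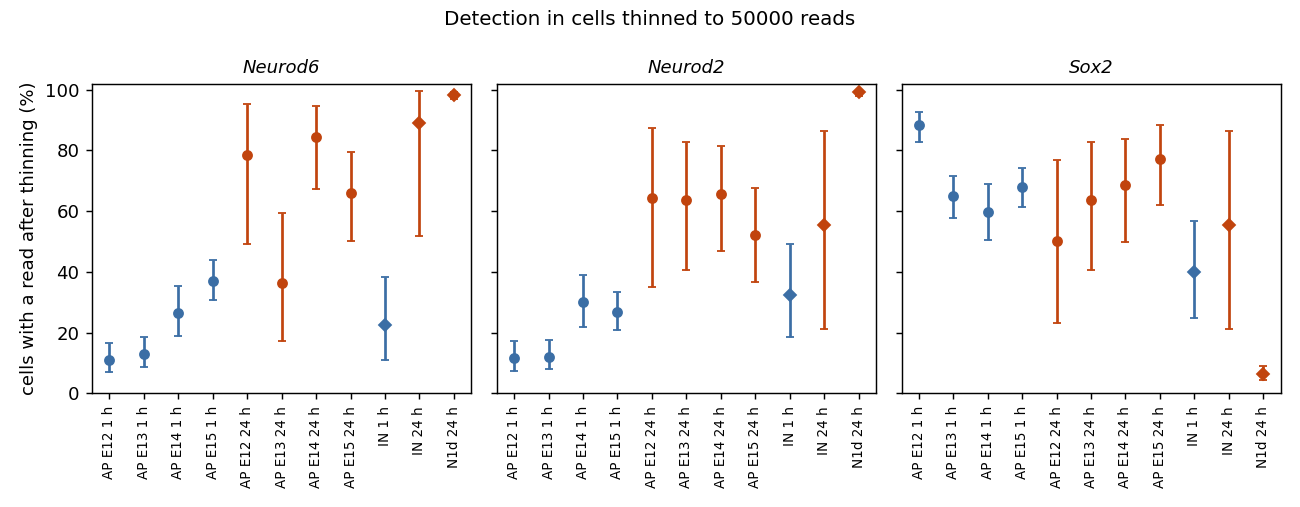
Share of cells (%) with a read of Neurod6, Neurod2 or Sox2 after thinning each cell to 50000 reads, for AP cells by injection day and time (circles) and for IN and N1d cells (diamonds), with exact 95% intervals. Neurod6 in AP cells at 24 h lies near or below its share in IN cells at 24 h. Sox2 lies at 50 to 77.3% in AP cells at 24 h, at 55.6% in IN cells at 24 h and at 6.34% in N1d cells. The IN cells at 24 h came from E14 and E15 24 h only.

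Genes of DNA replication stood higher at 24 h in the E14 and E15 pairs. Of 26 S phase genes tested, 12 were higher in all 3 pairs (13.6% of all genes) and 1, Dtl, was lower in all 3. The median log2 difference was 0.74, with -0.18, 1.18 and 1.22 in the E13, E14 and E15 pairs, so the median of the E13 pair did not share the direction. The summed level was higher at 24 h in each pair, the E13 pair included, at 3324, 4423 and 3062 CPM against 2848, 2062 and 1492 CPM at 1 h. At 1 h it was lower at each later stage, starting from 6224 CPM at E12 1 h outside the pairs, and at E15 24 h it was 2241 CPM.

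Gmnn, the inhibitor of replication licensing (chromosome 13, 24751845 to 24761923), stood at 238.1, 153.4 and 129.03 CPM at 24 h and at 102.3, 63.8 and 46.3 CPM at 1 h. Tipin, a partner of the replication fork, stood at 312, 154.1 and 206.1 CPM against 120, 82.1 and 86.4 CPM. Slbp, which binds the stem-loop of histone mRNA, stood at 218.3, 173.8 and 172.97 CPM against 106.2, 85.8 and 47.3 CPM. In these 3 genes every 24 h sum lay above every 1 h sum, with log2 differences of 1.32 ± 0.33, 1.18 ± 0.30 and 1.31 ± 0.35.

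Ccne2, the cyclin that drives entry into S phase, stood at 115.7, 69.5 and 31.3 CPM at 24 h and 7.03, 13.4 and 8.38 CPM at 1 h. Its highest cell gave 84.7% of its reads at E12 24 h, and only 21.4, 22.7 and 12.5% of the thinned 24 h cells had a read. Fen1, a flap endonuclease of lagging strand synthesis outside the list, stood at 101.6, 166.5 and 70.0 CPM against 26.5, 10.9 and 19.4 CPM, with 72.8, 51.7 and 21.7% of the 24 h reads in a single cell. Gmnn was spread over more cells, in 57.1, 45.5 and 37.5% of thinned cells at 24 h and 32.2, 29.9 and 22.1% at 1 h. In N1d cells, which have left the cycle, 9.00% had a Gmnn read and 3.89% a Ccne2 read (median depth 320430 reads).

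The licensing helicase was less uniform. Mcm6 stood at 173.6, 440 and 312 CPM at 24 h and 282.4, 153.2 and 120.6 CPM at 1 h, lower at 24 h in the E13 pair and higher in the other 2. Mcm3 and Mcm4 did the same. The 7 S phase genes whose 6 sums did not overlap between times were Gmnn, Tipin, Slbp, Ccne2, Rrm2, Tyms and Pcna (7.62% of all genes lay above without overlap). None of the 26 kept the times apart once the sums outside the pairs were added, because E12 1 h was high: Gmnn stood at 286.7 CPM there and Rrm2 at 335 CPM, against 110 and 70.6 CPM at E15 24 h.

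**Figure D4:**
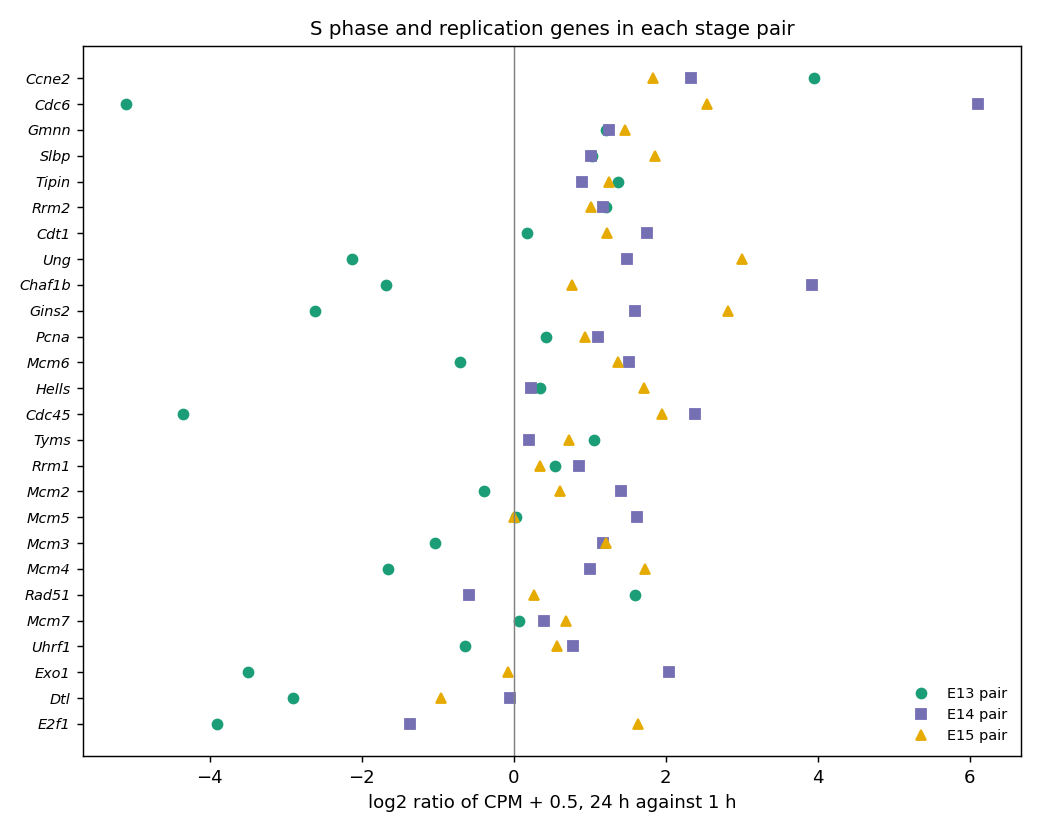
Log2 ratio of 24 h to 1 h (CPM plus 0.5) for the 26 S phase genes tested, with 1 symbol per stage pair. Ccne2, Gmnn, Slbp, Tipin and Rrm2 lie right of 0 in all 3 pairs with little spread in the last 4, while Cdc6, Cdc45, Gins2 and Ung lie left of 0 in the E13 pair and right of it in the others.

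The promoters of S phase genes are shown because these members stood higher together in the E14 and E15 pairs. Of 27 genes in the list, 20 had a promoter in the RefSeq table (GRCm38.p6, 250 bases before to 50 after the start). Letters were searched on both strands and were chosen after values were seen. TTCCCGC, a core of E2F sites, occurred in 9 of the 20 (45%) and in 5.29% of 27025 genes. TTGGCGC, another E2F core, occurred in 6 of 20 (30%) and in 2.85% of all genes. CCAAT, the NF-Y box, occurred in 12 of 20 (60%) and in 41.1% of all genes, but also in 8 of 13 young neuron markers with an entry (61.5%). The E-boxes CAGATG and CAGCTG occurred in 0 and 3 of the 20 (0 and 15%) and in 19.2 and 18.3% of all genes. The 3 promoters printed are those of the list members higher in all 3 pairs with the smallest p among members with an entry, and capitals mark the E2F cores and CCAAT. Slbp (chr5:33652525-33652824, minus strand) holds 3 CCAAT boxes and Rrm2 (chr12:24708004-24708303, plus strand), the small subunit of ribonucleotide reductase, holds 1. Cdt1 (chr8:122567765-122568064, plus strand), the licensing factor that Gmnn binds, holds 1 match of each E2F core. A match is a description of letters and not of binding.
Slbp: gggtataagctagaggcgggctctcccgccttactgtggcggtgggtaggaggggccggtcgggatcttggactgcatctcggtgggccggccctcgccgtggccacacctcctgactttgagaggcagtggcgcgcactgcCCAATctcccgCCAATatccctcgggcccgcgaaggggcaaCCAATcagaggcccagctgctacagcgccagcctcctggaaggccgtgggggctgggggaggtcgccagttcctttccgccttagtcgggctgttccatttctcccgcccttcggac
Rrm2: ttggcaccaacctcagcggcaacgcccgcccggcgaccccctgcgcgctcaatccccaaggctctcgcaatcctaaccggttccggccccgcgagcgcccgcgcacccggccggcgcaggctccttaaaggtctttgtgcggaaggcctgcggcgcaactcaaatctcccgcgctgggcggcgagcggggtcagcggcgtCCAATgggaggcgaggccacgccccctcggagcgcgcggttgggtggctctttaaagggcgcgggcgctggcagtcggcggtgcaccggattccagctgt
Cdt1: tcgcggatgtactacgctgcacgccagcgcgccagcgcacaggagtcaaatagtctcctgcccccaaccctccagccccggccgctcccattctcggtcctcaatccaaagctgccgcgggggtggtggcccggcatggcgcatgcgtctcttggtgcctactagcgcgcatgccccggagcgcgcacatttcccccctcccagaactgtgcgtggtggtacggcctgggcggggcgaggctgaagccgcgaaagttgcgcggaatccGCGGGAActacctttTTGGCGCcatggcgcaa

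Mitotic genes did not follow the S phase genes. Of 29 G2 and M phase genes tested, 4 were higher and 3 lower in all 3 pairs, with a median of 0.02. The medians were 0.89, -0.44 and -0.21 in the E13, E14 and E15 pairs, and 17 of the 29 lay above 0 in the fit. Cdk1, the mitotic kinase, stood at 326, 155.9 and 118.7 CPM at 24 h and 157.6, 80.3 and 74.3 CPM at 1 h. Mki67, the proliferation antigen, stood at 414, 423 and 392 CPM against 441, 673 and 652 CPM, lower in each pair. Kif11, the spindle motor, stood at 55.3, 22.7 and 29.1 CPM against 95.5, 83.5 and 108.6 CPM, and Aspm, a spindle pole protein, at 67.6, 113.04 and 72.1 CPM against 140, 153.99 and 141.6 CPM. The 24 h and 1 h sums of Mki67, Kif11 and Aspm did not overlap, also over all 8 sums. They were the only 3 of 29 members lower without overlap, over the 6 sums (9.49% of all genes) and over all 8 (4.32%). Over the 6 sums 1 member was higher without overlap (7.62% of all genes). Mki67, Kif11 and Aspm were lower at 24 h in the sums, but not in share of thinned cells with a read in the E13 pair. These shares were 71.4, 35.7 and 42.9% at 24 h and 65.8, 31.7 and 35.7% at 1 h. The median Mki67 cell of that pair stood at 261.5 CPM at 24 h and 43.6 CPM at 1 h. In the E14 pair the Aspm share was lower at 24 h, at 18.2 against 42.7%. The list summed to 8629, 3908 and 4313 CPM at 24 h and 4801, 5010 and 5384 CPM at 1 h, so E12 24 h was the highest of the 6 and the other two 24 h sums the lowest.

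Among 15 regulators of G1 tested, 4 were higher and 1 lower in all 3 pairs (median 0.38). Ccnd1, the D-type cyclin of cycling progenitors, stood at 263.6, 209.5 and 172.6 CPM at 24 h and 120, 146.5 and 70.3 CPM at 1 h, a log2 difference of 0.98 ± 0.31. It was at 374 CPM in the E12 1 h sum and 14.7 CPM in the E15 24 h sum, and pairing by injection day gave -0.39. Cdkn1c, an inhibitor of cell cycle entry, stood at 68.95, 38.95 and 12.0 CPM against 10.2, 7.91 and 11.9 CPM. A single cell gave 90.4% of its reads at E12 24 h, where 2 of 14 thinned cells had a read. The highest cell gave 48.9% at E13 24 h, 58.8% at E13 1 h and 54.6% at E14 1 h. Cdk6, a G1 kinase, stood at 29.7, 81.7 and 100.2 CPM against 115.9, 120 and 114.6 CPM.

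Markers of radial glia lay on both sides of 0. Of 18 AP markers, 5 were higher and 8 lower in all 3 pairs, with a median of -0.11, close to that of all genes. Sox2, the progenitor transcription factor, stood at 99.6, 108.8 and 135.7 CPM at 24 h and 158.2, 152.4 and 161.4 CPM at 1 h (log2 difference -0.47 ± 0.31). The sums did not overlap, but its share of thinned cells with a read was 50, 63.6 and 68.8% at 24 h and 64.8, 59.8 and 68.1% at 1 h. It was 55.6% in IN cells at 24 h, above the share at E12 24 h, and 6.34% in N1d cells. These IN cells came from E14 and E15 24 h only. Nes, the intermediate filament nestin, stood at 101.02, 248.2 and 140.7 CPM against 274.4, 290 and 217.4 CPM, lower in each pair although the groups overlapped.

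Fabp7, a fatty acid binding protein of radial glia, stood at 1598, 1749 and 2764 CPM at 24 h and 698, 1118 and 2112 CPM at 1 h. It was higher at 24 h in each pair by 0.74 ± 0.20 on the log2 scale, and at both times its level was higher at each later stage, from 265.6 CPM at E12 1 h to 3677 CPM at E15 24 h. In AP.late cells alone the difference was 1.52 and passed in edgeR (adjusted p = 0.00239; over all fits tried 0.000429 to 0.95), although E12 24 h then rests on 2 cells. Id4, an inhibitor of differentiation, stood at 314, 262.7 and 132.7 CPM against 158.8, 107.3 and 90.1 CPM.

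Mt1, a metallothionein that binds zinc, stood at 1180, 1141 and 938 CPM at 24 h and 583, 632 and 655 CPM at 1 h, without overlap over the 6 or the 8 sums (log2 difference 0.80 ± 0.20). Its median cell stood at 1090.0, 1099 and 684 CPM at 24 h and 220.6, 245.9 and 399.6 CPM at 1 h. Mt1 belongs to the list of late and gliogenic progenitor genes, in which 5 of 23 tested were higher and 2 lower in all 3 pairs (median -0.02). Among 8 early progenitor genes, 4 were lower and 1 higher in all 3 pairs (17.3 and 13.6% of all genes, median -0.53). Igf2bp1, an RNA-binding protein of early progenitors, stood at 41.3, 51.5 and 60.1 CPM at 24 h and 131.8, 102.5 and 66.6 CPM at 1 h. Its relative Igf2bp3 stood at 80.98, 85.7 and 61.3 CPM against 137.02, 115.8 and 100.2 CPM. Both sets of sums did not overlap.

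Notch signalling keeps radial glia undifferentiated, through ligands on neighbours and Hes targets within the cell. Of 15 Notch genes tested, 2 were higher and 3 lower in all 3 pairs (13.6 and 17.3% of all genes, median -0.03). Hes5, a direct target, stood at 66.6, 63.2 and 31.0 CPM at 24 h and 29.3, 27.2 and 22.7 CPM at 1 h (0.95 ± 0.63). A single cell gave 65.96% of the Hes5 reads at E12 24 h, where 2 of 14 thinned cells had a read. The share of thinned cells with a Hes5 read was 14.3, 36.4 and 34.4% at 24 h. At 1 h it was 27.1, 27.35 and 22.1%, so in the E13 pair this share was lower at 24 h. Hes1, the other main target, overlapped, at 334, 232.2 and 346 CPM against 344, 199.5 and 163.7 CPM. Numb, an adaptor that limits Notch, stood at 0, 2.99 and 16.8 CPM against 50.8, 39.7 and 26.0 CPM. The value of 0 in E12 24 h rests on 14 cells, of which none had a read.

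Of 8 BP markers tested, 2 were higher and 1 lower in all 3 pairs (median -0.05). Eomes, the defining BP transcription factor, stood at 76.4, 10.3 and 184.6 CPM at 24 h and 99.8, 123.98 and 104.1 CPM at 1 h, so the 24 h sums spread on both sides of the 1 h sums. Gadd45g, a stress-response gene also seen in differentiating progenitors, stood at 390, 220.5 and 505 CPM against 185.6, 176.4 and 147.04 CPM (1.06 ± 0.33), without overlap. The 12 BP markers summed to 842, 783 and 1235 CPM at 24 h and 826, 879 and 677 CPM at 1 h, against 2635, 3786 and 5769 CPM in BP cells at 24 h.

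The Hippo pathway limits growth by restraining the co-activators Yap1 and Wwtr1 and their DNA-binding partners, the Tead proteins. Tead1 stood at 5.41, 16.6 and 71.7 CPM at 24 h and 103.3, 94.5 and 127.2 CPM at 1 h (-2.50 ± 0.74). The pairs did not overlap, but E15 24 h stood at 155.5 CPM, above every 1 h sum, and 85.2 and 70.2% of the reads at E12 and E13 24 h came from a single cell. Of 12 Hippo genes tested, none was higher and 4 were lower in all 3 pairs (13.6 and 17.3% of all genes, median -0.52). Wwtr1 stood at 43.9, 126.02 and 72.7 CPM against 85.6, 196.5 and 192.5 CPM, and Stk4, an upstream kinase, at 54.3, 23.4 and 35.3 CPM against 81.1, 83.2 and 66.99 CPM. The highest cell gave 94.1% of the Stk4 reads at E12 24 h.

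The named genes lower at 24 h with the smallest p were Crebbp, Yam1, Nedd4, Paip2b, Lars2, Ccnk, Cdc73 and B3gnt5. Crebbp, a histone acetyltransferase (chromosome 16, 4081328 to 4213997), stood at 83.98, 90.4 and 130.6 CPM at 24 h and 329, 234.6 and 244.3 CPM at 1 h. It was read in 35.7, 36.4 and 59.4% of thinned cells at 24 h and 72.4, 67.5 and 69.5% at 1 h. The log2 difference was -1.41 ± 0.32, and the outside sums overlapped, at 206.1 CPM for E15 24 h and 180.8 CPM for E12 1 h. B3gnt5, a glycosyltransferase of glycolipid synthesis, stood at 4.41, 7.83 and 59.96 CPM against 89.3, 88.2 and 102.4 CPM. Its highest cell gave 77.3% of its reads at E12 24 h. Nedd4, a ubiquitin ligase and the most abundant of these genes with a known product, stood at 866, 1450 and 1548 CPM against 1883, 2463 and 2038 CPM.

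Cdc73, a subunit of the PAF1 transcription elongation complex, stood at 27.3, 44.2 and 79.7 CPM against 111.7, 159.1 and 136.7 CPM. Ccnk, the cyclin of elongation kinases, stood at 18.2, 34.7 and 41.6 CPM against 86.1, 117.1 and 102.8 CPM. The highest cell gave 97.8% of the Ccnk reads at E12 24 h, where 3 of 14 cells had a read. Paip2b, which binds the poly(A)-binding protein, and Lars2, the mitochondrial leucyl-tRNA synthetase, differed by -1.37 ± 0.36 and -1.38 ± 0.36. At E12 24 h the highest cell gave 77.5% of the Paip2b reads and 51.7% of the Lars2 reads. Yam1, a symbol with no entry in the annotation used, stood at 888, 2016 and 4981 CPM against 7728, 6125 and 7429 CPM. In Ccnk, Cdc73 and Yam1 every 24 h sum of the pairs lay below every 1 h sum, and E14 24 h was the highest of the 3.

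Besides Neurod6 and Fen1, the named genes higher at 24 h with the smallest p were Calm2, Slfn9, Eif5a, Snrpb, Pigf and Srsf7. Calm2, a calmodulin gene, stood at 1247, 949 and 897 CPM at 24 h and 619.6, 476 and 521 CPM at 1 h (0.93 ± 0.19), and the 8 sums did not overlap. Eif5a, a translation factor, stood at 904, 726 and 838 CPM against 699.5, 476 and 426 CPM. Snrpb, a core protein of the spliceosome, and Srsf7, a splicing factor, differed by 0.83 ± 0.19 and 0.81 ± 0.20. Pigf, of GPI anchor synthesis, stood at 120, 128.6 and 84.1 CPM against 37.5, 34.4 and 31.7 CPM. Slfn9 stood at 84.2, 159.2 and 52.1 CPM against 10.5, 33.0 and 10.5 CPM, but a single cell gave 99.8% of its reads at E12 24 h and 79.5% at E13 24 h.

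RNA encoded by the mitochondrial genome made up a smaller share of reads in the 24 h cells. The median per cell was 2.04, 2.80 and 2.96% at 24 h and 5.37, 5.40 and 4.88% at 1 h, a mean difference of -2.62 percentage points (SD 0.706), lower in 3 of 3 pairs (exact two-sided permutation p = 0.25, the smallest possible). Of 13 mitochondrial genes tested, 8 were lower and 2 higher in all 3 pairs (median -0.82). mt-Atp8, a subunit of ATP synthase, stood at 12.2, 28.6 and 58.2 CPM at 24 h and 184.1, 141.4 and 144.3 CPM at 1 h (-2.48 ± 0.58). The ribosomal RNA mt-Rnr1 stood at 3810, 6055 and 7468 CPM at 24 h and 11970, 12191 and 11752 CPM at 1 h (-1.10 ± 0.20), and the other ribosomal RNA, mt-Rnr2, differed by -1.07 ± 0.20. In DESeq2, 7 of the 13 were called lower (1.44% of all genes) and 2 higher (0.554%). The 2 were mt-Co2 and mt-Co3, subunits of cytochrome oxidase. mt-Co3 stood at 81.4, 76.7 and 37.2 CPM at 24 h and 1.81, 1.74 and 1.17 CPM at 1 h, whereas mt-Co1, of the same enzyme, stood at 882, 1598 and 1120 CPM against 2494, 2074 and 1976 CPM. The annotation behind the counts is not given in the sources used here, and whether reads of mt-Co2 and mt-Co3 were counted alike in all runs was not tested, so their values are not read as a difference in expression. The list summed to 22271, 32866 and 31117 CPM in AP cells at 24 h, to 32127, 38995 and 43577 CPM in N1d cells of the same conditions, and to 50453, 45966 and 47924 CPM in AP cells at 1 h. Run and collection time cannot be told apart here.

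Ribosomal protein genes lay below 0 in 75 of 86 tested. Of these 86, 43 were lower and 4 higher in all 3 pairs (17.3 and 13.6% of all genes), with 32 lower without overlap (9.49% of all genes) and a median of -0.32. Rps4x stood at 1583, 1310 and 2325 CPM at 24 h and 4235, 3465 and 3020 CPM at 1 h (-1.07 ± 0.24). Rpl5 stood at 798, 712 and 748 CPM against 1308, 1303 and 1054 CPM. Rps3a3, a processed pseudogene whose reads may be shared with its parent gene, went the other way, at 152.5, 118.2 and 63.4 CPM against 1.37, 6.26 and 0.719 CPM. It was at 764 CPM in E12 1 h and 2.58 CPM in E15 24 h, so it did not separate the times beyond the pairs.

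**Figure D5:**
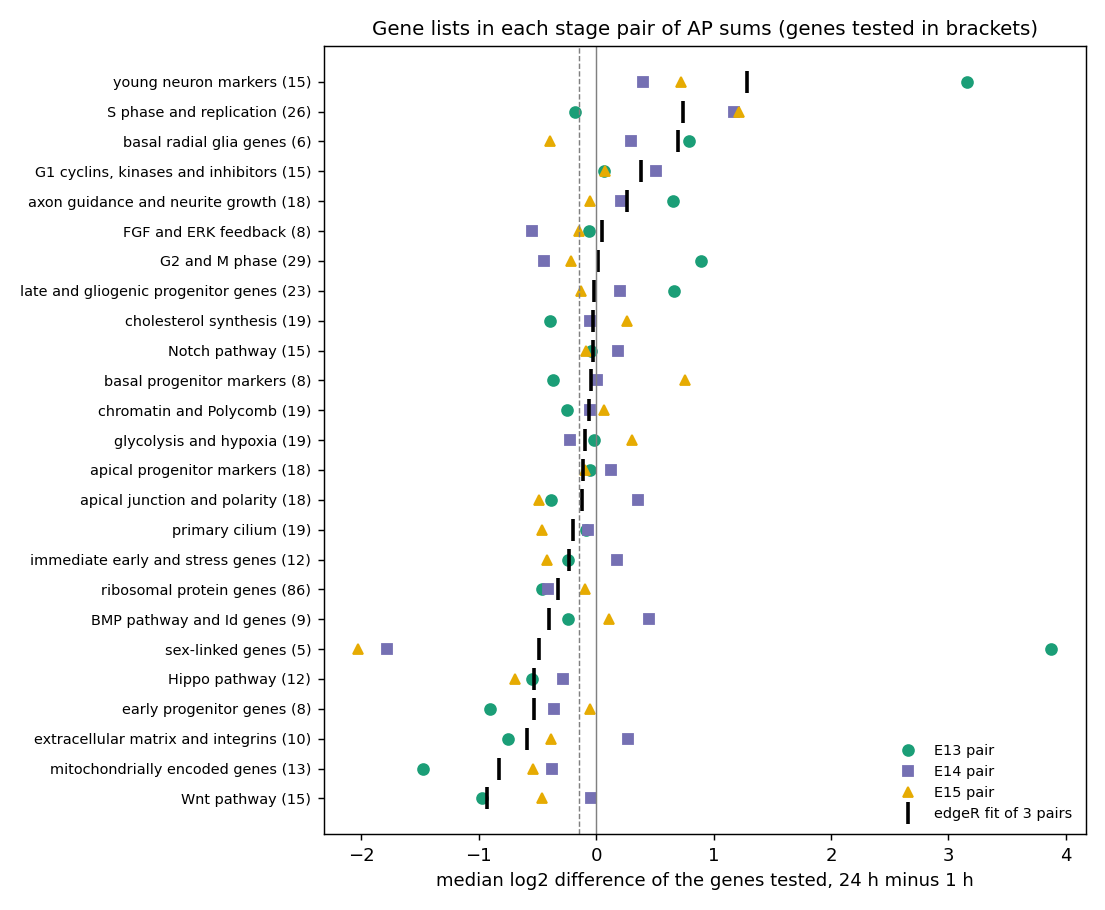
Median log2 difference (24 h minus 1 h, horizontal axis) of the tested genes of each list with at least 5, for each stage pair (symbols) and for the edgeR fit of the 3 pairs (black bars). The dashed line is the median of all genes at -0.15. The young neuron list lies at 1.28 with its E13 pair at 3.16, and the Wnt, mitochondrial and extracellular matrix lists have the lowest medians of the fit, an order that the single pairs do not keep.

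Wnt signals pattern the cortex and hold progenitors in cycle. Of 15 Wnt genes tested, 2 were higher and 7 lower in all 3 pairs (13.6 and 17.3% of all genes). The median was -0.93 in the fit, with medians of -0.97, -0.04 and -0.46 in the E13, E14 and E15 pairs taken alone. Apc, part of the complex that degrades beta-catenin, stood at 51.9, 50.5 and 109.4 CPM at 24 h and 122.8, 205.2 and 150.4 CPM at 1 h. Tcf7l1, a nuclear effector, stood at 0.802, 32.3 and 18.1 CPM against 68.6, 74.97 and 29.4 CPM. Fzd8, a receptor, went the other way, at 156.9, 130.9 and 110 CPM against 56.2, 84.3 and 62.3 CPM. At E12 24 h the highest cell gave 69.9% of the Apc reads and 75% of the Tcf7l1 reads. Only 2 of the 14 cells there had a Tcf7l1 read.

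Over all genes 17.3% were lower and 13.6% higher in all 3 pairs, and the counts of the lists that follow stand beside these shares. Extracellular matrix and integrin genes had a median of -0.59, with 4 of 10 lower and none higher in all 3 pairs. Itga6, a laminin receptor subunit, stood at 0.802, 39.9 and 58.4 CPM at 24 h and 88.7, 69.9 and 79.7 CPM at 1 h. At E12 24 h 1 of 14 cells had an Itga6 read. Apical junction and polarity genes were lower in all 3 pairs in 5 of 18 and higher in none (median -0.12), and cilium genes were lower in 5 and higher in 1 of 19 (median -0.20). Chromatin genes (5 lower and 2 higher of 19), glycolysis genes (3 lower and 4 higher of 19) and cholesterol synthesis genes (2 lower and 1 higher of 19) had medians of -0.06, -0.10 and -0.02. Immediate early and stress genes, which can respond to tissue dissociation, were lower in all 3 pairs in 4 of 12 and higher in none (median -0.23). Among 18 axon guidance genes, 3 were higher and 1 lower in all 3 pairs (median 0.26). Plxna4, a semaphorin co-receptor, stood at 19.2, 18.1 and 72.4 CPM against 0.182, 0.334 and 12.5 CPM. Its highest cell gave 63.5% of its reads at E12 24 h.

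The spread between the pairs was largest where cells were fewest. The SD over genes of the log2 ratio was 2.00 in the E13 pair with 14 cells at 24 h, 1.65 in the E14 pair with 22 and 0.946 in the E15 pair with 32. In the same fit the stage factor gave no call in edgeR and 96 genes at an unadjusted p under 0.05 (1.09%, smallest adjusted p 0.995), a test added after the edgeR result was seen. Over all 8 AP sums of 1 h and 24 h, 3.1% of genes lay higher at 24 h without overlap and 382 (4.32%) lower.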

How the data were processed

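The authors' deposited values are whole counts of reads, not normalized, for 16441 genes by 2756 cells. The submitters' processing notes name GRCm38, TopHat2 2.0.13 and UMI-tools without their roles. The counter, annotation and filters are not given in the sources used here. Counts were taken as reads, since column totals were 0.987 to 1 times the read number in the labels.

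Counts of AP cells were summed per condition, and 24 h was compared with 1 h by edgeR 4.0.16 (R 4.3.3): glmQLFit and glmQLFTest with TMM scaling, stage as a factor, genes with at least 10 CPM in at least 3 of the 6 sums, and Benjamini-Hochberg adjustment over all 8844 genes at 0.05. The 6 sums were scaled together, and the 2 sums outside the pairs with all 8, which shifts CPM by -0.366%. DESeq2 1.42.0 and limma 3.58.1 served as alternatives. Python 3.11.15 (pandas 2.3.3, numpy 2.4.6, scipy 1.17.1) served for sums and shares. Ratios within a pair used a pseudocount of 0.5 CPM. Shares carry exact Clopper-Pearson intervals at 95%, which cover counting error only. Doublets were not called here. No 2 AP cells had identical columns. The fit was tested on simulated counts, with 1 false call among 26.

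The members and gene lists were chosen with earlier results of these data known. Named genes were those past the threshold (there were none), then up to 8 in each direction by smallest p with the same sign in 3 pairs and a mean of at least 50 CPM, leaving out predicted, ribosomal and mitochondrial genes, plus up to 4 members of each list by smallest p with a mean of at least 20 CPM. To these were added Sox2, Pax6, Nes, Eomes, Neurod6 and Dcx. Other genes named (such as Map2, Mcm6, Rrm2, Cdt1, Tyms, Pcna, Dtl, Myt1l, mt-Co1, mt-Co2) were chosen after their values were seen. Gene coordinates are from GENCODE on GRCm38. The 16 AP cells at 96 h were not used.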

Additional observations from a re-analysis of the deposited data

How the results depend on the processing

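Calls are given here as percents of the genes tested. The value of 0% in edgeR was the same with DESeq2 size factors, no low count filter, a filter on detection in 10% of cells, no stage term, stage as a number, equal weight of cells, pairing by injection day, AP.mid2 cells only, no AP.mid1 cells, cells of at least 100000 reads, and without any 1 pair (0 to 0). It became 1.99% (0.554 higher, 1.44 lower) with DESeq2 and 2.09% (1.7 higher, 0.396 lower) with voom, which was added after the result was seen. All 8 sums gave 0.0107%, which was mt-Co3, higher at a log2 difference of 5.54, whose counting across runs was not tested. AP.late cells gave 0.0616%: 0.0247% higher (Fabp7, 1.52, and Rps3a3, 7.11) and 0.037% lower (mt-Rnr1, -1.11, mt-Rnr2, -0.87, and Yam1, -1.09), singled out after their values were seen. The cause was not tested. Of the named genes, 25 passed in both DESeq2 and voom, against 53 of all 8844 genes tested. Under each of the 17 alternatives that gave them a value, 89 named genes had 1 sign (4 of the 89 had none in 1 to 3 of them). Most named genes were picked by smallest p on these same sums, some also by the same sign in 3 pairs. That choice favours a stable sign and a pass in other tools, so neither count measures robustness.

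The other 27 crossed 0 somewhere, on the log2 scale. AP.late cells gave -2.49 for Cdk1, -0.095 for Fzd8, -0.20 for Hes1, -1.52 for Hes6, -1.56 for Ift57, 0.35 for Kcnq1ot1, -0.22 for Miat, -1.08 for Plekha7, -0.26 for Sox9, -4.28 for Spred2 and -1.56 for Uty. AP.mid2 cells gave 0.49 for Dmrt3, 1.13 for Eomes, -1.64 for Hopx, -0.064 for Ift81, -0.11 for Kif3a, 0.25 for Neurog2 and 0.11 for Rhbdl3. Pairing by injection day gave 0.43 for Bcan, -0.39 for Ccnd1, 0.024 for Ncan and 0.085 for Vim. Stage as a number gave 0.18 for Bcan and 0.042 for Mpp5, all 8 sums 0.12 for Bcan, and no stage term 0.085 for Mpp5 and -0.22 for Tnc. Voom gave 0.45 for Eomes, 0.18 for Neurog2 and -0.55 for Tnc.

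Leaving out 1 pair at a time crossed 0 for Mpp5 (-1.38 to 0.13), Neurog2 (-1.35 to 0.22), Tnc (-0.20 to 3.73) and Uty (-0.11 to 3.39), whose sign was the other one without the E13 pair. The same held without the E14 pair for Eomes (-1.98 to 0.22), Il6st (-0.16 to 2.70) and Xist (-1.70 to 0.019), and without the E15 pair for Bcan (-1.87 to 0.057) and Miat (-0.018 to 0.90). Ddx3y (-2.07 to 2.63) was above 0 without the E14 or the E15 pair. Thinned genes per cell, 140.8 higher over the 3 pairs, lay between -34.3 (without the E15 pair) and 273.3 (without the E14 pair). The AP.mid1 difference moved between -37.8 and -21.9 points, AP.mid2 between 8.63 and 20.1, AP.late between 3.99 and 11.8, and the mitochondrial share between -2.97 and -2.26. The young neuron list median ranged from 0.52 to 2.51 and the S phase median from 0.19 to 1.09 over the 18 fits.

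The comparison was paired by stage through the stage factor. By replicate number, no paired analysis was possible because these numbers only count the cells of a condition. With 14 to 32 cells at 24 h, depth was limited by cells rather than by reads per cell.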
